A study of Bos taurus with 32 samples.

Results

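Liver RNA of dairy cows fed controlled energy before calving was compared between the day after calving and about a week before it. The comparison used the 4 arrays labelled CON at 1 d and the 5 arrays labelled CON at -8 d, which are 9 of the 32 arrays of the series, and all 24016 probe sets that were not array controls. Arrays were chosen by their labels, with no expression value. All were Affymetrix bovine expression arrays of liver biopsies from Ayrshire cows. The CON cows had received controlled energy during the 6 weeks that ended at predicted calving, and the HIGH cows, used here for the closing comparison, a high-energy diet over the same weeks. The -8 d biopsy was timed against predicted calving and the 1 d biopsy against actual calving. Cow numbers in the labels tied arrays to animals: cows 445, 477 and 483 had an array on both days, cow 510 at 1 d only, and cows 527 and 528 at -8 d only, so 6 cows stand behind the 9 arrays. The design text speaks of 16 cows in the whole study, whereas the 32 arrays came from 12. Age, parity and the diet after calving are not given in the labels used here.

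At calving a dairy cow starts to secrete milk, and the udder draws glucose, amino acids and fat faster than feed intake grows. The ruminant liver makes glucose from propionate, lactate and amino acids rather than absorbing it from the gut, takes up fatty acids released from adipose tissue, and oxidises them, stores them as triglyceride or exports them in lipoproteins. It also secretes most plasma proteins, among them the acute phase proteins whose output follows inflammatory cytokines.

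Values were log2 expression values made with RMA (robust multi-array averaging), and they ran from 2.35 to 15 over the table. The median of each array lay between 5.86 and 5.93. A change below is the fitted log2 difference of CON 1 d minus CON -8 d with its standard error (SE). A gene or probe set is said to have risen or fallen only where the adjusted p of limma's moderated test, with Benjamini-Hochberg adjustment over 24016 probe sets, was under 0.05. Values of single arrays are listed for cows 445, 477, 483 and 510 at 1 d and for cows 445, 477, 483, 527 and 528 at -8 d. Where a gene had several probe sets, the one with the highest mean over all arrays was used.

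The day of sampling was the main axis among the 9 arrays. On the first principal component, which held 31.1% of their variance, the CON 1 d arrays lay at 18.1, 12.6, 29.2 and 23.3, against 0.4, -23.4, -20.6, -23.7 and -16.1 for the CON -8 d arrays. The -8 d array of cow 445 therefore stood apart from the other -8 d arrays, on the side of the 1 d arrays, and results that rest on it are given with and without it. The markers of hepatocytes averaged 12.92 to 13.03 over 17 genes at CON 1 d and 12.78 to 13 at CON -8 d, near the top of the scale on every array. A sign of RNA quality moved with the day. The difference between the 3' and 5' control probe sets of elongation factor was -1.18 ± 0.18 at CON 1 d and -0.72 ± 0.13 at CON -8 d (SD, n = 4 and 5), and the groups did not overlap. The same difference for GAPDH was 0.47 ± 0.11 at CON 1 d and 0.54 ± 0.04 at CON -8 d, and for actin 1.64 ± 0.18 and 1.53 ± 0.12 on the same days, with overlapping groups. For cyclophilin it was 1.11 ± 0.06 (1.05 to 1.18) at CON 1 d and 1.21 ± 0.06 (1.17 to 1.31) at CON -8 d, lower at 1 d like elongation factor and with a narrow overlap. The part of RNA quality in the changes below was not tested.

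**Figure D1:**
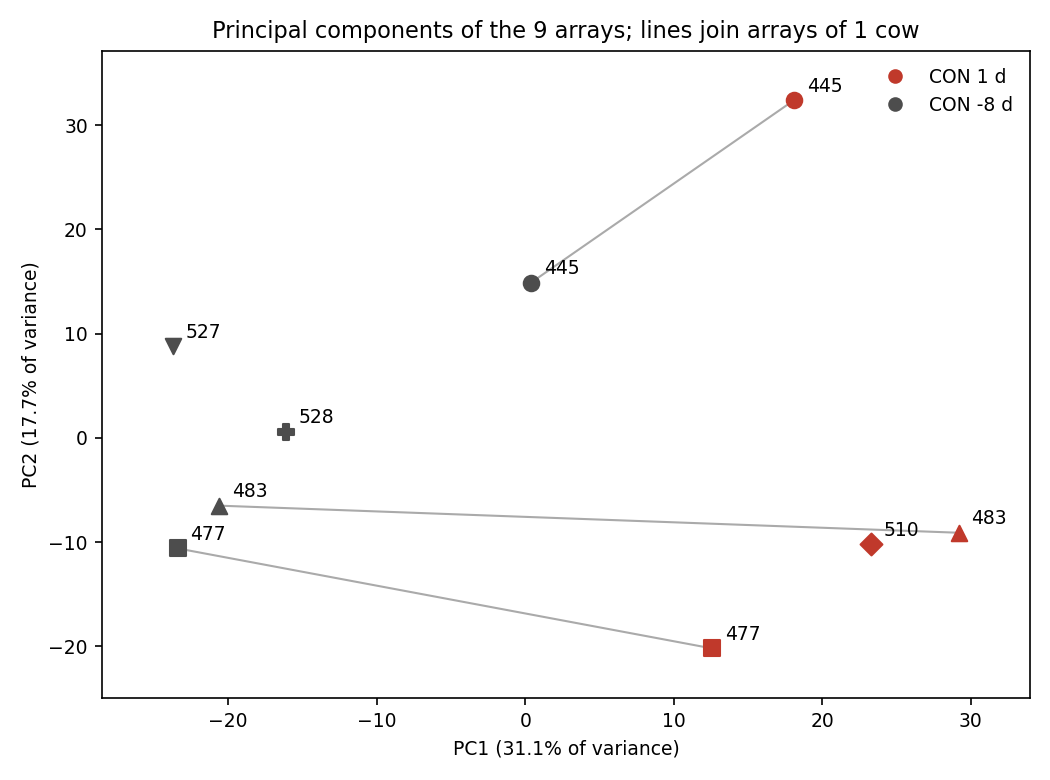
First and second principal components (31.1% and 17.7% of the variance) of the 9 arrays over all tested probe sets, with 1 point per array, a symbol and number per cow, red for CON 1 d and grey for CON -8 d, and lines joining the 2 arrays of a cow. The 4 CON 1 d arrays lie at 12.6 or above on the first component and the -8 d array of cow 445 lies at 0.4, between them and the other CON -8 d arrays.

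Between the 2 days 798 probe sets rose (3.32% of those tested) and 721 fell (3.0%), together 6.32%. Changes of at least 1.5-fold made up 274 of the rises and 208 of the falls. Counted by gene, 438 of 9155 genes rose (4.78%) and 295 fell (3.22%), in sum 733 genes or 8.01%, and the median change of all genes was 0.01. The 4 values at CON 1 d did not overlap the 5 values at CON -8 d in 733 genes, again 8.01%, and 421 of these were among the called genes. In the 3 cows with both days, 632 of the 733 called genes moved the same way in 3 of 3 cows. The counts depended on single arrays. Without the -8 d array of cow 445, 930 probe sets rose and 860 fell. Without the -8 d array of cow 477 the counts were 485 and 464, without that of cow 483 they were 538 and 446, without the 1 d array of cow 483 they were 420 and 359, and without the 1 d array of cow 510 they were 547 and 473. With the 3 cows of both days alone and cow as a fixed block, 52 probe sets rose and 32 fell, and with only the 9 CON arrays in the fit 222 rose and 204 fell. Of the 107 called genes named below, 31 and 72 passed in these 2 smaller fits. Unless other arrays are named beside it, each call described below held when each of the 9 arrays was left out in turn.

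The 2 largest rises among called genes that moved the same way in each cow were of haptoglobin and of plasma glutathione peroxidase, which is described with the redox genes. HP, the haemoglobin-binding acute phase protein haptoglobin, measured 14.84, 14.88, 14.86 and 14.88 at CON 1 d, against 14.1, 8.58, 7.7, 10.37 and 12.38 at CON -8 d. It rose 21.4-fold (4.42, SE 1.0, adjusted p = 0.00635 by limma). All 4 cows were alike after calving and close to the ceiling of the table, while the -8 d values were spread over most of the scale, with cow 445 already near its 1 d value. Without that -8 d array the change was 5.35, and without the -8 d array of cow 483 it was 3.7. HP did not pass the test when only the 9 CON arrays, or only the 3 cows with both days, were fitted. Values near the ceiling may be compressed, so a fold computed at this height may fall short of the change in RNA.

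**Figure D2:**
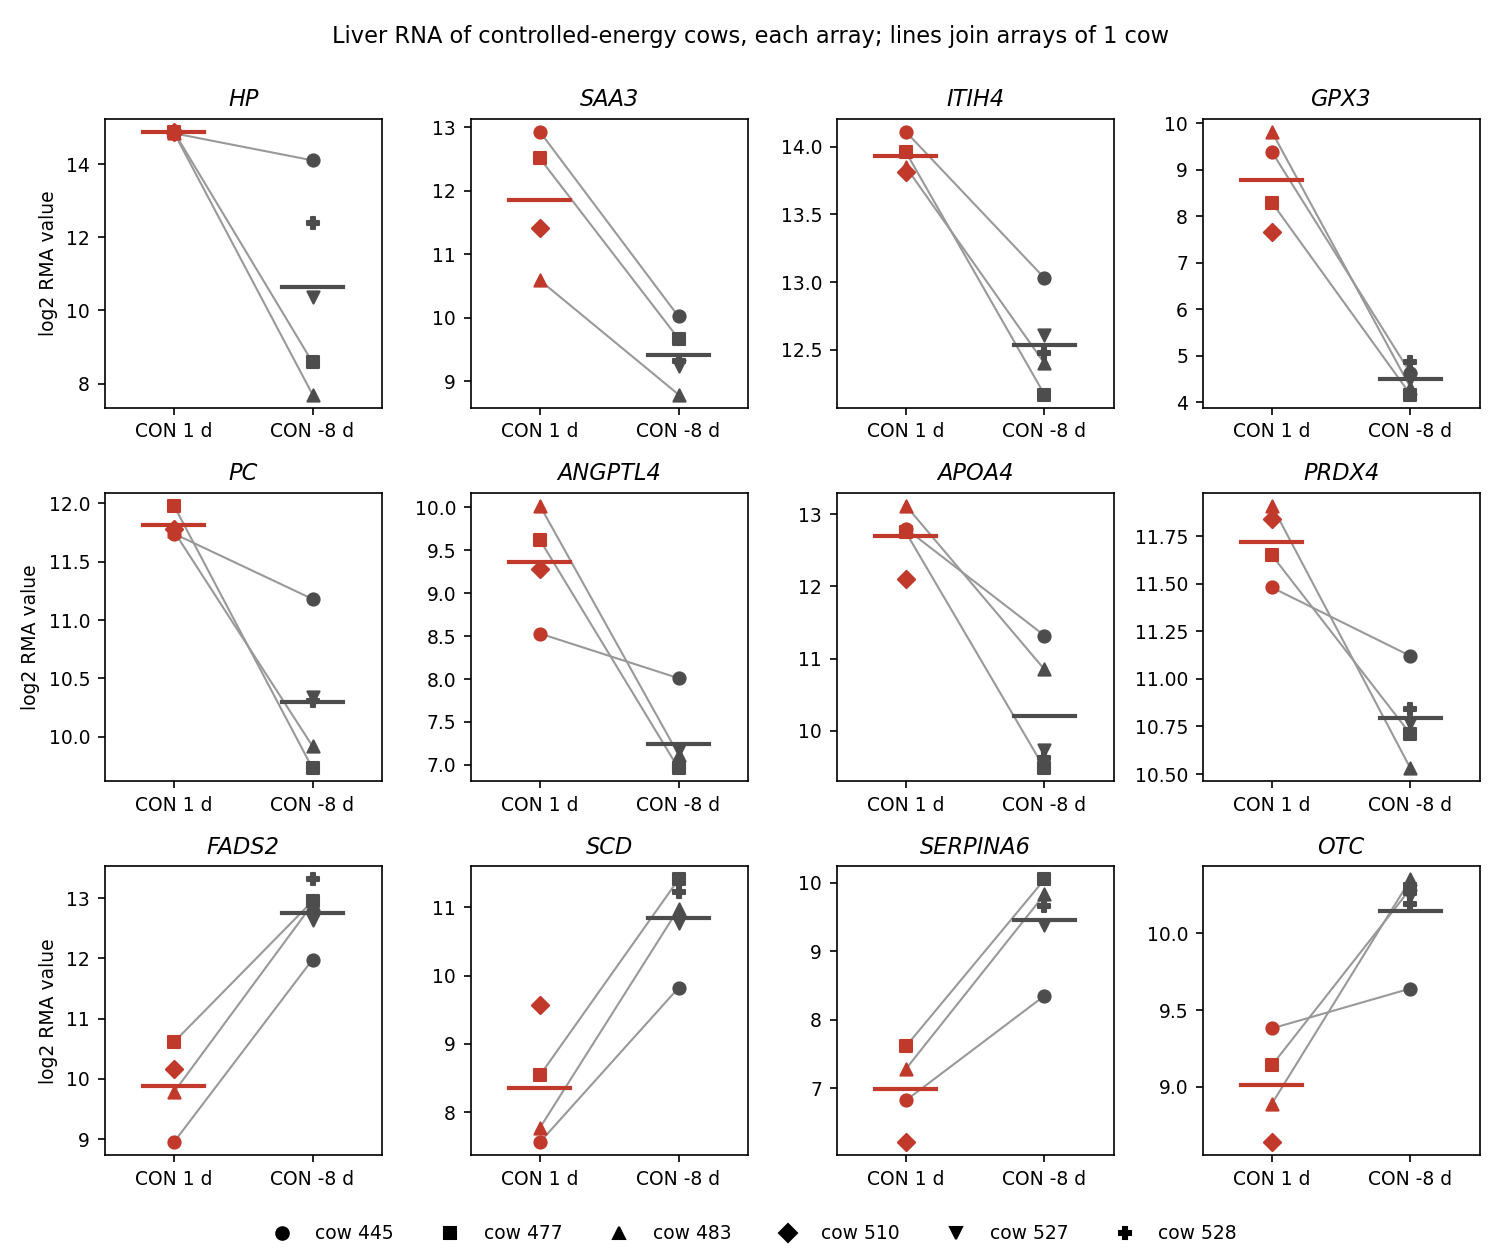
Log2 expression of 12 genes on each array, CON 1 d on the left and CON -8 d on the right of each panel, with bars at the group means and lines joining the arrays of a cow. HP reaches 14.84 to 14.88 in all 4 cows at CON 1 d, GPX3 7.66 or above at CON 1 d and 4.88 or below at CON -8 d, and FADS2, SCD, SERPINA6 and OTC lie lower at CON 1 d in every cow with both days.

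Of 25 measured acute phase genes that are known to rise in inflammation, 11 rose and 0 fell, with a median change of 0.39. Of the 11 rises 4, S100A8, S100A9, S100A12 and LTF, are also on the list of neutrophil markers and were all of its rises. SAA3, a serum amyloid A form made in liver and in other tissues, measured 12.93, 12.51, 10.59 and 11.41 at CON 1 d, against 10.02, 9.67, 8.79, 9.24 and 9.32 at CON -8 d, a 5.48-fold rise (2.45, SE 0.46, adjusted p = 0.00139 by limma). SAA4, the constitutive form carried on high density lipoprotein, rose by 1.4 (SE 0.27, adjusted p = 0.00155). The groups did not overlap for either gene, and SAA3 was highest in cows 445 and 477. ITIH4, an inter-alpha-trypsin inhibitor chain that is a major acute phase protein in cattle, was at 14.11, 13.96, 13.85 and 13.81 at CON 1 d, against 13.03, 12.17, 12.4, 12.61 and 12.48 at CON -8 d. It rose by 1.41 (SE 0.13, adjusted p = 9.5e-08), with a wide gap between the days. SERPINA3-7, a bovine antichymotrypsin-type protease inhibitor, rose by 0.39 (adjusted p = 0.00929) at a level of 14.4 or more on all arrays. Leaving out the -8 d array of cow 445 gave 13 rises in this list, leaving out both arrays of that cow 9, leaving out the 1 d array of cow 445 alone 7 and leaving out the 1 d array of cow 483 alone 6.

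The calgranulins, calcium- and zinc-binding proteins known best from neutrophils, were among these rises. S100A8 measured 9.55, 8.93, 8.97 and 8.86 at CON 1 d and 8.12, 7.68, 7.05, 7.33 and 7.66 at CON -8 d, a rise of 1.56 (SE 0.36, adjusted p = 0.0074 by limma). S100A12 rose by 2.21 (SE 0.58, adjusted p = 0.0181), a call that was lost without the -8 d array of cow 483 or the 1 d array of cow 445 or 483. S100A9, the partner of S100A8, rose by 0.72 (SE 0.18, adjusted p = 0.0138) and LTF, the iron-binding lactoferrin, by 1.8 (SE 0.51, adjusted p = 0.0276). The S100A9 call was lost without the 1 d array of cow 445 or 483. The LTF call was lost without the -8 d array of cow 477, 527 or 528 and without the 1 d array of cow 445, 483 or 510. Over all 14 neutrophil markers these 4 rose and 0 fell, and the median change was 0.13. The list mean was 5.37 to 5.82 at CON 1 d and 4.99 to 5.33 at CON -8 d. Over all arrays of the series 9 of the 14 members averaged under 6. The count of rises was 1 without the 1 d array of cow 445 or of cow 483. In bulk liver, more cells of a type and more RNA per cell cannot be told apart. The part of neutrophils in these rises was not tested.

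Plasma proteins known to decline in the acute phase gave 6 falls and 1 rise among 17 genes, with a median change of -0.09. The fall was deep for SERPINA6, the cortisol-binding globulin that carries glucocorticoid in blood. It measured 6.82, 7.61, 7.28 and 6.21 at CON 1 d, against 8.35, 10.05, 9.83, 9.38 and 9.66 at CON -8 d, and was thus 5.38-fold lower (-2.43, SE 0.41, adjusted p = 0.00049 by limma). No 1 d value reached a -8 d value, and the lowest -8 d value was that of cow 445. TTR, the thyroxine and retinol carrier transthyretin, fell in a narrow band. It was at 14.04, 14.02, 14.03 and 14.03 at CON 1 d and at 14.27, 14.32, 14.34, 14.38 and 14.31 at CON -8 d (-0.3, SE 0.05, adjusted p = 0.000497). PON1, the paraoxonase of high density lipoprotein, fell by 0.34 (adjusted p = 0.00139). The 1 rise was APOM, a lipocalin of high density lipoprotein that carries sphingosine-1-phosphate, at 0.82 (SE 0.23, adjusted p = 0.0253). That call was lost without the -8 d array of cow 445 or 483 and without the 1 d array of cow 477, 483 or 510.

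Complement and coagulation genes showed small changes in both directions, 3 rises and 3 falls among 40 measured genes with a median of 0.01. PLG, the precursor of the clot-dissolving protease plasmin, rose by 0.25 (SE 0.06, adjusted p = 0.00805 by limma). SERPIND1, the thrombin inhibitor heparin cofactor, fell by 0.43 (SE 0.09, adjusted p = 0.00214), and VTN, the adhesion protein vitronectin, by 0.15 (SE 0.03, adjusted p = 0.00662). For these 3 genes the groups did not overlap. Among 14 innate lectins 1 rose and 2 fell, and the falls were 1 without either array of cow 477, the -8 d array of cow 483 or the 1 d array of cow 510. COLEC11, a collectin that binds sugars on microbes, was among the falls at -0.66 (SE 0.11, adjusted p = 0.000631).

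Interferon-stimulated genes gave 9 rises and 0 falls among 34 genes, with 29 positive changes and a median of 0.41, the highest median of the 37 gene lists. USP18, which removes the ISG15 tag from proteins and dampens interferon signalling, measured 8.76, 8.41, 8.76 and 8.33 at CON 1 d, against 7.78, 7.3, 7.45, 7.28 and 7.76 at CON -8 d (1.06, SE 0.19, adjusted p = 0.000838 by limma). PARP9, which works with a ubiquitin ligase in interferon responses, rose by 0.89 (SE 0.2, adjusted p = 0.00502) and LGALS3BP, a secreted galectin-binding glycoprotein, by 0.55 (SE 0.12, adjusted p = 0.00607). Groups were separate for all 3. ISG15 itself, the ubiquitin-like protein, was at 11.62, 9.18, 10.19 and 9.01 at CON 1 d and 8.84, 7.66, 8.19, 7.97 and 8.46 at CON -8 d. It rose by 1.82 (SE 0.49, adjusted p = 0.0214), and cow 445 was highest on both days. The call was lost without the -8 d array of cow 477 or 483 or the 1 d array of cow 445 or 483. The list count was likewise fragile. It was 4 without the -8 d array of cow 477, 3 without that of cow 483, 4 and 5 without the 1 d arrays of cows 445 and 510, and 10 without the -8 d array of cow 445. Without both arrays of cow 445 the count was 5. The median was then 0.31, below the 0.44 of the acute phase list, so its rank depended on that cow.

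The 2 largest falls among called genes that moved the same way in each cow were of fatty acid desaturases. FADS2, the delta-6 desaturase of polyunsaturated fatty acid synthesis, measured 8.95, 10.61, 9.78 and 10.16 at CON 1 d, against 11.98, 12.95, 12.9, 12.63 and 13.31 at CON -8 d. It was 7.28-fold lower after calving (-2.86, SE 0.41, adjusted p = 0.000104 by limma). SCD, the delta-9 desaturase that makes oleate, measured 7.56, 8.54, 7.77 and 9.57 at CON 1 d and 9.82, 11.41, 10.98, 10.77 and 11.22 at CON -8 d, 5.63-fold lower (-2.49, SE 0.41, adjusted p = 0.000386). All 1 d values of both genes lay under all -8 d values, and cow 445 was lowest on each day. Without its -8 d array the changes were -3.06 for FADS2 and -2.76 for SCD. ACSS2, which activates acetate, the main carbon source for fat synthesis in ruminants, was at 7.18, 8.49, 8.31 and 7.42 at CON 1 d and 8.71, 9.9, 9.74, 9.32 and 9.88 at CON -8 d (-1.64, SE 0.31, adjusted p = 0.00134).

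These were the steep changes of a list that otherwise moved little. Of 29 fatty acid and triglyceride synthesis genes 4 fell and 0 rose, and the median was -0.08. FASN, the fatty acid synthase, had a change of -0.52 that did not pass the test. Cholesterol synthesis gave 2 falls among 19 genes, ACAT2, which joins 2 acetyl units at the start of the pathway, at -0.49 (SE 0.1, adjusted p = 0.00256 by limma) and LSS, the lanosterol synthase, at -0.64 (SE 0.15, adjusted p = 0.0079), and that count was 4 without the 1 d array of cow 477. For both genes 1 d and -8 d values overlapped. The share called in the cholesterol list was 10.5%, against 8.01% of all genes.

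Some genes of lipoprotein assembly and of lipid droplets rose. APOA4, an apolipoprotein of triglyceride-rich particles and high density lipoprotein, measured 12.8, 12.75, 13.12 and 12.11 at CON 1 d, against 11.32, 9.48, 10.85, 9.73 and 9.62 at CON -8 d (2.45, SE 0.43, adjusted p = 0.000639 by limma). Without the -8 d array of cow 445, which held the highest value before calving, it was 2.74. MTTP, the transfer protein that loads triglyceride onto apolipoprotein B, was at 10.81, 11.18, 11.29 and 11.22 at CON 1 d and at 10.65, 10.5, 10.78, 10.63 and 10.45 at CON -8 d (0.52, SE 0.12, adjusted p = 0.00866), a narrow separation. In the opposite direction, APOC3, a lipoprotein lipase inhibitor, fell by 0.27 (SE 0.05, adjusted p = 0.00217) and LIPC, the hepatic lipase, by 0.8 (SE 0.17, adjusted p = 0.00394). The list of 24 apolipoprotein and assembly genes held 9 rises and 2 falls with a median of 0.21. It held 5 rises without the -8 d array of cow 483 or the 1 d array of cow 477 and 4 without the 1 d array of cow 483.

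ANGPTL4, a secreted inhibitor of lipoprotein lipase that fasting and fatty acids are known to induce, measured 8.53, 9.62, 10.02 and 9.28 at CON 1 d, against 8.01, 6.96, 7.12, 7.17 and 6.98 at CON -8 d. It rose 4.28-fold (2.1, SE 0.29, adjusted p = 5.38e-05 by limma), or by 2.32 without the -8 d array of cow 445. PLIN2, the coat protein of lipid droplets, was at 8.58, 8.44, 9.54 and 8.3 at CON 1 d and 7.82, 7.11, 7.2, 7.23 and 7.43 at CON -8 d (1.37, SE 0.23, adjusted p = 0.000479). Neither gene overlapped between the days. G0S2, an inhibitor of adipose triglyceride lipase, measured 11.37, 11.89, 12.22 and 12.11 at CON 1 d and 11.21, 9.57, 10.59, 8.97 and 10.11 at CON -8 d, with a rise of 1.77 (SE 0.42, adjusted p = 0.00936) and, in cow 445, hardly any difference between the days. Among 21 fasting and PPAR-alpha targets 6 rose and 1, FADS2, fell, with a median of 0.07. MLYCD, which removes the malonyl-CoA that blocks mitochondrial fatty acid entry, was among the rises at 0.55 (SE 0.12, adjusted p = 0.00676). Its groups overlapped, and its difference within cow 445 was 0.03.

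Fatty acid oxidation was a mixed list. Of 32 genes 5 rose and 2 fell, the median was 0.07, and the count of rises was 9 without the 1 d array of cow 445. CPT1B, the carnitine palmitoyltransferase isoform best known from muscle, measured 7.63, 8.34, 8.58 and 6.7 at CON 1 d, against 6.45, 5.55, 6.69, 5.82 and 6.42 at CON -8 d (1.65, SE 0.32, adjusted p = 0.00157 by limma). The groups were separated by the narrow gap between cow 510 at 1 d and cow 483 at -8 d. SLC22A5, the carnitine transporter, rose by 1.07 (SE 0.19, adjusted p = 0.000734), ACADVL, the dehydrogenase for very long chains, by 0.57 (SE 0.11, adjusted p = 0.00177), and CROT, the peroxisomal carnitine octanoyltransferase, by 0.58 (SE 0.13, adjusted p = 0.00515). HADH, the short-chain hydroxyacyl-CoA dehydrogenase, fell by 0.48 (SE 0.1, adjusted p = 0.00322). Of 4 measured ketone synthesis genes 0 passed the test of limma or of the fit with cow as a fixed block, 1 had an unadjusted p under 0.05, and the median was 0.04.

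Pyruvate carboxylase rose in each cow with both days. PC, the gene of this enzyme, which makes oxaloacetate from pyruvate, measured 11.74, 11.98, 11.76 and 11.78 at CON 1 d, against 11.18, 9.73, 9.92, 10.34 and 10.31 at CON -8 d. The rise was 1.52 (SE 0.18, adjusted p = 1.21e-05 by limma). After calving the 4 cows agreed closely, before calving cow 445 was the highest, and without that array the change was 1.75. LDHB, the lactate dehydrogenase subunit that favours lactate oxidation, was at 13.54, 13.77, 13.9 and 13.67 at CON 1 d and 13.4, 12.69, 12.96, 13.13 and 13.02 at CON -8 d (0.69, SE 0.11, adjusted p = 0.000399). PCK1, the cytosolic phosphoenolpyruvate carboxykinase, had a change of 0.04 that did not pass the test. Of 39 genes of gluconeogenesis and its substrate supply 7 rose and 2 fell, with a median of 0.14. The 7 rises became 3 without the -8 d array of cow 477, 3 without that of cow 483, 4 without that of cow 527, 4 without that of cow 528, 4 without the 1 d array of cow 477 and 3 without the 1 d array of cow 483. GLUD1, the glutamate dehydrogenase, was among the falls at -0.37 (SE 0.08, adjusted p = 0.00279). In glycolysis, PKLR, the liver pyruvate kinase, fell by 0.66 (SE 0.16, adjusted p = 0.0085) and ALDOA, an aldolase, rose by 0.66 (SE 0.13, adjusted p = 0.0016), the 2 calls among 23 genes. That share of 8.7% lay near the 8.01% of all genes.

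**Figure D3:**
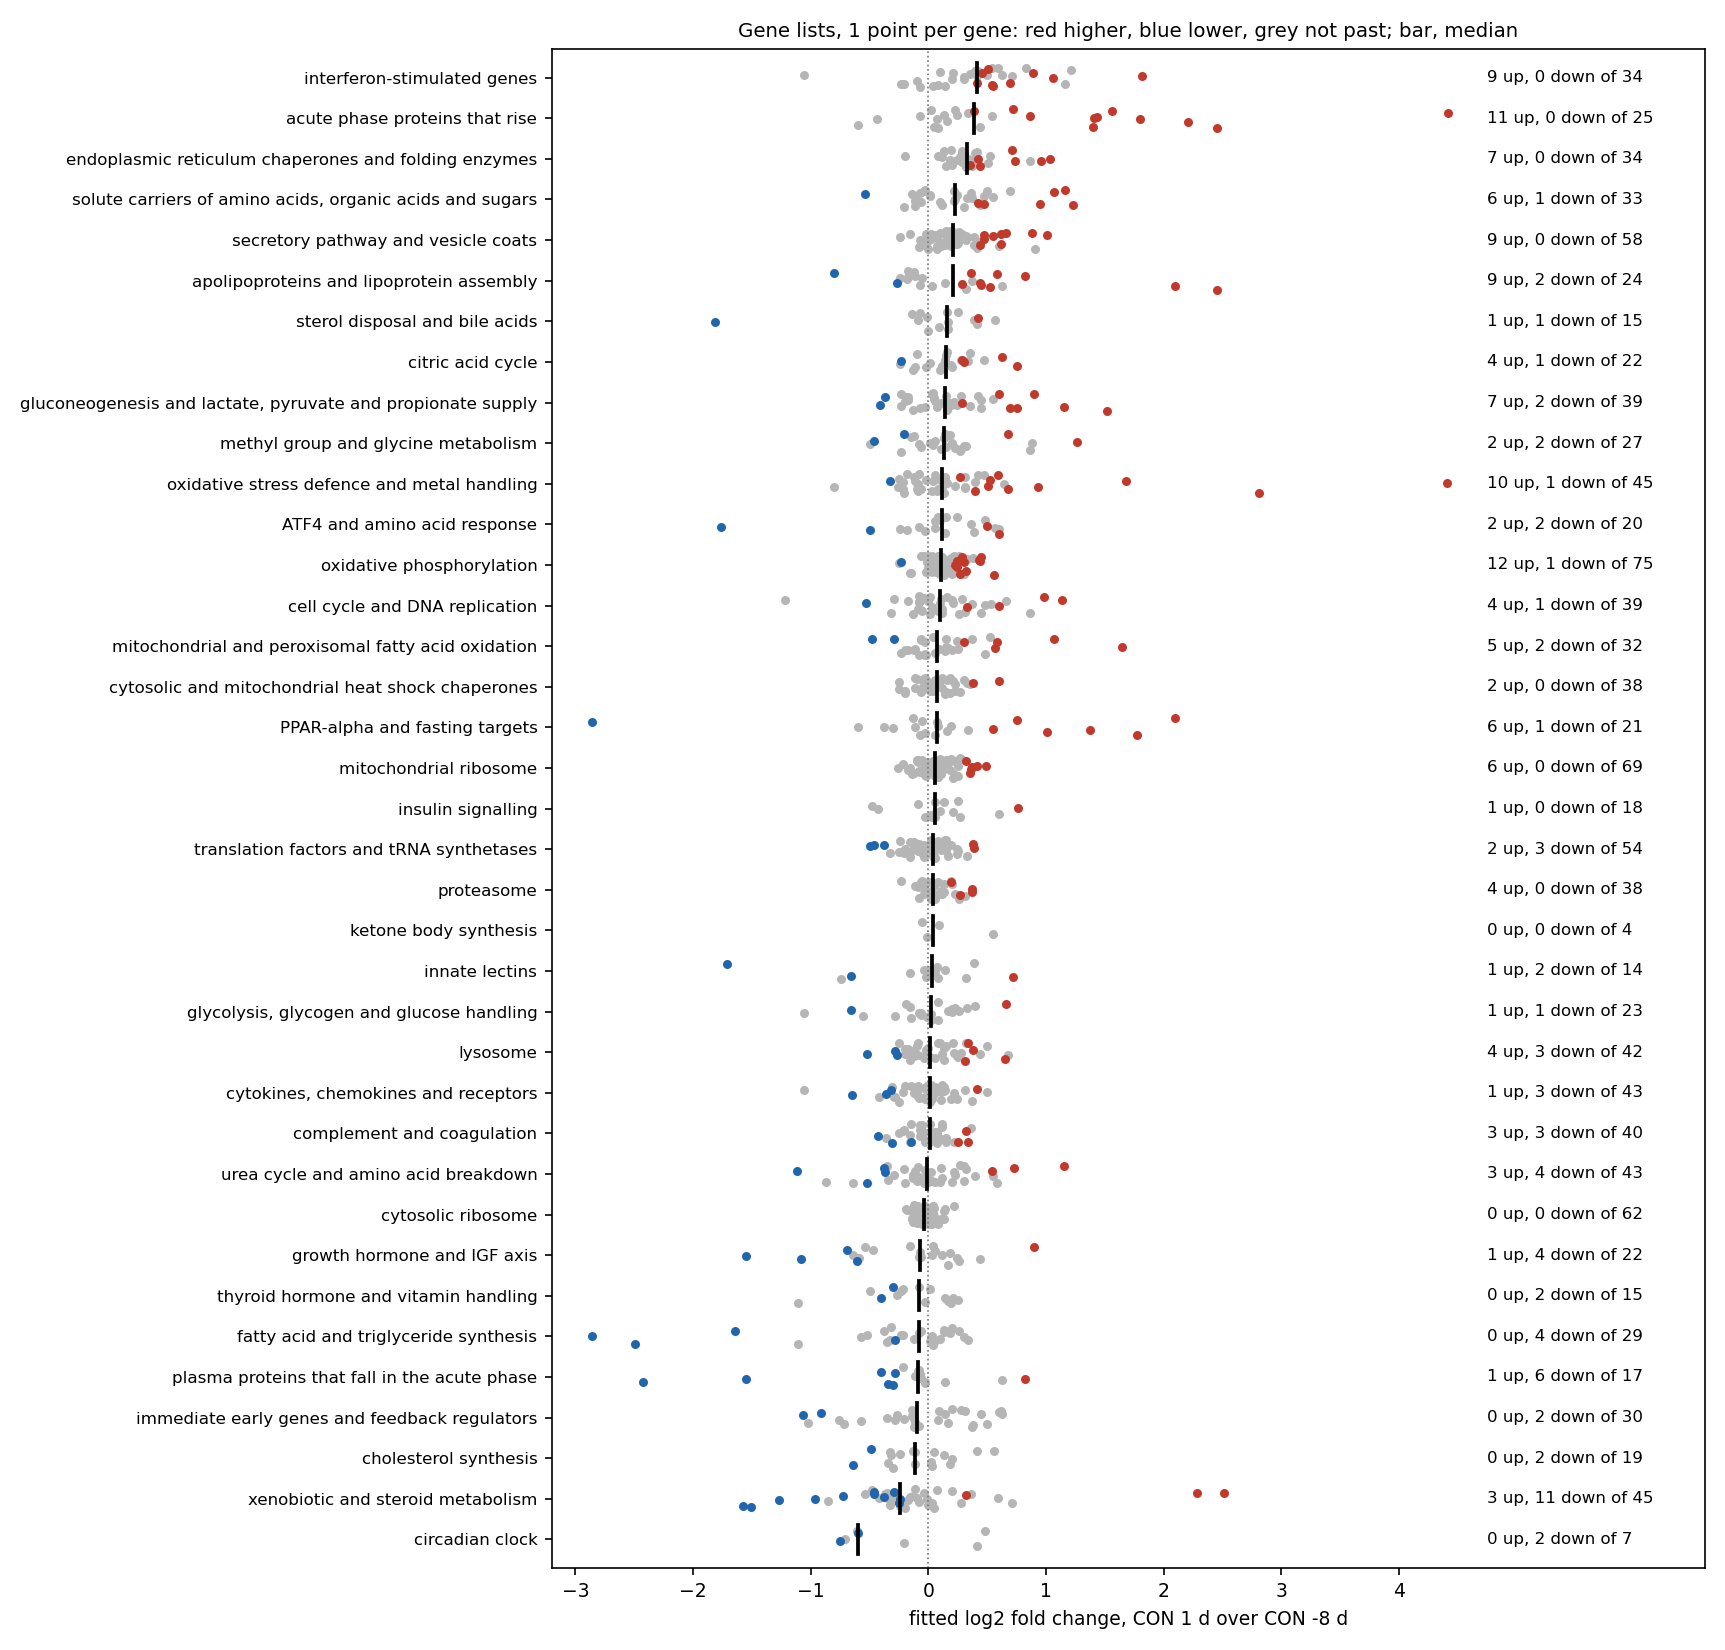
Fitted log2 change of CON 1 d over CON -8 d for every measured gene of the 37 gene lists, 1 point per gene, red for genes that rose, blue for genes that fell, grey for genes not past the threshold, and a black bar at each list's median. The medians run from 0.41 for interferon-stimulated genes to -0.6 for the 7 clock genes, and the counts of genes up and down stand at the right.

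Genes of redox defence and metal binding held some of the steepest rises. GPX3, the glutathione peroxidase secreted into plasma, measured 9.39, 8.3, 9.82 and 7.66 at CON 1 d, against 4.63, 4.17, 4.32, 4.5 and 4.88 at CON -8 d. It rose 21.2-fold (4.41, SE 0.38, adjusted p = 1.94e-08 by limma), and since the -8 d values lay at the dim end of the scale, where RMA values are compressed, the fold may be too small. All cows were near that dim end before calving and all were far above it after. PRDX4, the peroxiredoxin of the endoplasmic reticulum, was at 11.48, 11.65, 11.91 and 11.84 at CON 1 d and 11.12, 10.71, 10.53, 10.77 and 10.84 at CON -8 d (0.93, SE 0.12, adjusted p = 3.64e-05). MT1A, a zinc- and copper-binding metallothionein, measured 11.93, 9.55, 13.93 and 10.11 at CON 1 d and 9.5, 7.34, 9.04, 9.34 and 8.26 at CON -8 d. It rose by 2.81 (SE 0.66, adjusted p = 0.0081), unevenly. Without the 1 d array of cow 483 the change was 1.96 and the call was lost. TFRC, the transferrin receptor, rose by 0.68 (SE 0.14, adjusted p = 0.00202) and GPX4, which reduces lipid peroxides in membranes, by 0.52 (SE 0.12, adjusted p = 0.00569). TFRC was dim on both days, at 5.08 to 5.88 at CON 1 d and 4.58 to 5.01 at CON -8 d. The GPX4 groups overlapped, and its difference within cow 445 was -0.04. Of the 45 genes of this list 10 rose and 1 fell, with a median of 0.12, and 6 rose without the 1 d array of cow 483.

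Xenobiotic and steroid metabolism had more falls than rises, 11 and 3 among 45 genes and a median of -0.24. AOX1, aldehyde oxidase, fell by 0.96 (SE 0.14, adjusted p = 0.000134 by limma) and CYP2D14, a cytochrome P450, by 0.73 (SE 0.11, adjusted p = 0.000205). FMO1, a flavin monooxygenase, fell by 0.38 (SE 0.07, adjusted p = 0.00183), and none of these genes overlapped between the days. HSD17B2, which inactivates oestradiol and testosterone, measured 6.44, 8.01, 8.37 and 7.13 at CON 1 d, against 8.67, 9.46, 9.27, 8.88 and 9.07 at CON -8 d (-1.58, SE 0.31, adjusted p = 0.00175). HSD11B1, which regenerates cortisol from cortisone, fell by 0.46 (SE 0.08, adjusted p = 0.000868). The 2 widest rises of the list were CYP11A1 and HSD3B1. CYP11A1, the cholesterol side-chain cleavage enzyme, was at 8.69, 8.88, 8.05 and 10.2 at CON 1 d and 6.4, 6.01, 5.87, 5.57 and 8.32 at CON -8 d (2.51, SE 0.56, adjusted p = 0.00598), with an overlap between cow 483 at 1 d and cow 528 at -8 d. HSD3B1, a 3-beta-hydroxysteroid dehydrogenase, measured 6.99, 7.32, 8.54 and 6.86 at CON 1 d and 4.97, 4.99, 5.5, 4.96 and 5.08 at CON -8 d (2.28, SE 0.5, adjusted p = 0.00526), with no overlap.

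Genes of protein folding and secretion had small changes that were nearly all positive. In the endoplasmic reticulum list 7 of 34 genes rose, 0 fell and 33 had a positive change, with a median of 0.33. FKBP11, a prolyl isomerase of secretory cells, measured 10.71, 10.72, 11.1 and 11.79 at CON 1 d, against 10.5, 10, 9.91, 9.98 and 10.19 at CON -8 d (0.96, SE 0.18, adjusted p = 0.00145 by limma). NUCB2, a calcium-binding protein and precursor of nesfatin, rose by 1.03 (SE 0.23, adjusted p = 0.00635), ERO1A, which reoxidises protein disulfide isomerase, by 0.74 (SE 0.16, adjusted p = 0.00499), and P4HB, a protein disulfide isomerase and subunit of the triglyceride transfer protein, by 0.44 (SE 0.1, adjusted p = 0.00679). HSPA5, the chaperone BiP, had a change of 0.29 that did not pass the test. With the -8 d array of cow 445 left out the count was 9. In the secretory pathway list 9 of 58 genes rose and 0 fell, with a median of 0.21. SEC11C, a signal peptidase subunit, rose by 0.66 (SE 0.11, adjusted p = 0.000328), SSR3, of the translocon-associated complex, by 0.88 (SE 0.16, adjusted p = 0.00116), RPN2, of the oligosaccharyltransferase, by 0.55 (SE 0.09, adjusted p = 0.000578), and CREB3L3, a liver membrane-bound transcription factor of secretory and lipid genes, by 1.01 (SE 0.17, adjusted p = 0.000616). Without the -8 d array of cow 445 it held 13 rises. With cow as a fixed block over 32 arrays, 15 genes rose in each of these lists.

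The growth hormone and IGF axis was lower at 4 of 22 genes and higher at 1. IGFALS, the subunit that stabilises IGF in the circulation, measured 8.33, 8.61, 8.82 and 7.86 at CON 1 d, against 9.74, 9.83, 10.36, 9.97 and 9.92 at CON -8 d (-1.55, SE 0.26, adjusted p = 0.000451 by limma). IGF1, the growth factor itself, was at 7.9, 7.57, 7.64 and 7.73 at CON 1 d and 8.14, 8.47, 8.58, 8.41 and 8.41 at CON -8 d (-0.69, SE 0.13, adjusted p = 0.00142). GHR, the growth hormone receptor, measured 9.36, 10.17, 9.76 and 8.83 at CON 1 d and 10.11, 11.18, 10.99, 10.87 and 9.93 at CON -8 d. Its fall of 1.08 (SE 0.26, adjusted p = 0.0106) was called in 1 of its 11 probe sets and was lost without the 1 d array of cow 510. Each of the 3 cows with both days had less of these 3 RNAs after calving. IGFBP2, a binding protein that is known to rise when insulin is low, was higher by 0.9 (SE 0.21, adjusted p = 0.00728), with overlapping groups since cow 445 was high on both days. The median of the list was -0.07, and without the 1 d array of cow 510 it held 2 falls and 2 rises.

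Urea cycle genes went in opposite directions. OTC, ornithine transcarbamylase, which makes citrulline in mitochondria, measured 9.38, 9.14, 8.89 and 8.64 at CON 1 d, against 9.64, 10.29, 10.35, 10.24 and 10.19 at CON -8 d (-1.12, SE 0.15, adjusted p = 3.64e-05 by limma). ARG1, the arginase that releases urea, was at 13.39, 13.92, 13.52 and 13.71 at CON 1 d and 12.75, 12.69, 12.84, 13.35 and 12.89 at CON -8 d (0.73, SE 0.14, adjusted p = 0.00148). The groups were separate for both. Among 43 genes for the disposal of amino acids and their nitrogen, 3 were called higher and 4 lower, with a median of -0.01, the falls including HPD, a tyrosine-degrading dioxygenase, at -0.52 (SE 0.1, adjusted p = 0.0018). BCKDK, the kinase that turns off branched-chain keto acid breakdown, rose by 0.54 (SE 0.09, adjusted p = 0.000639).

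In methyl group metabolism 2 genes rose and 2 fell among 27, with a median of 0.13. BHMT, which remakes methionine from homocysteine with betaine, measured 13.28, 13.11, 13.4 and 12.33 at CON 1 d, against 12.22, 11.53, 11.43, 12.18 and 11.52 at CON -8 d (1.26, SE 0.21, adjusted p = 0.000408 by limma). The groups just failed to overlap, but the probe set of this gene with the largest SD over the arrays gave -0.08. AHCY, which splits S-adenosylhomocysteine, fell by 0.21 (SE 0.04, adjusted p = 0.00155). The count of rises ran from 1 to 5 when an array was left out, with 5 without the 1 d array of cow 445, and the count of falls from 1 to 2. Such small counts, here and in the other lists with 4 or fewer calls, are too few to order the lists by.

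Most mitochondrial genes did not pass the test. Of 75 oxidative phosphorylation genes 12 rose, 1 fell and 63 had a positive change, with a median of 0.11. UQCRB and UQCR11, subunits of complex III, rose by 0.56 (SE 0.1) and 0.44 (SE 0.08), each with an adjusted p of 0.000686 by limma, and ATP5F1B, the catalytic beta subunit of ATP synthase, by 0.45 (SE 0.08, adjusted p = 0.00116). The groups did not overlap for these 3 genes. The 12 rises became 19 without the 1 d array of cow 445 and 7 without the 1 d array of cow 483 or 510. In the citric acid cycle 4 of 22 genes rose and 1 fell. IDH3A, of the NAD-dependent isocitrate dehydrogenase, rose by 0.75 (SE 0.16, adjusted p = 0.00317), while the count of rises was 1 without the -8 d array of cow 477 or 527 or the 1 d array of cow 510. The mitochondrial ribosome held 6 rises and 0 falls among 69 genes, 8.7% called against 8.01% of all genes. It held 3 rises without the 1 d array of cow 483. Of the 62 cytosolic ribosome genes 0 passed the test of limma or of the fit with cow as a fixed block. At an unadjusted p under 0.05, 1 was higher and 9 were lower, and the median was -0.04.

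Other genes among the 15 largest rises and the 15 largest falls have not been named above. C5H12orf75, a gene known by its map position, measured 9.02, 8.99, 9.41 and 9.43 at CON 1 d, against 7.56, 7.17, 6.7, 7.42 and 7.96 at CON -8 d (1.89, SE 0.32, adjusted p = 0.000471 by limma). LOC613358, which RefSeq also lists as the metallothionein MT1E, rose by 3.19 (SE 0.72, adjusted p = 0.00625). Its probes and those of MT1A may share RNA of near-identical genes, and the groups overlapped. HOPX, a homeodomain-only protein, rose by 2.06 (SE 0.46, adjusted p = 0.00579) and ISM1, the secreted protein isthmin, by 2.2 (SE 0.49, adjusted p = 0.00599). Cow 483 was the highest at 1 d for LOC613358, HOPX and ISM1, and all 3 calls were lost without that array, when HOPX changed by 1.45. LOC613358 changed by 3.96 without the 1 d array of cow 477. Among the falls, SEC16B, of endoplasmic reticulum exit sites, measured 6.5, 6.43, 5.95 and 6.2 at CON 1 d and 7.42, 7.67, 7.55, 7.52 and 7.28 at CON -8 d (-1.23, SE 0.16, adjusted p = 2.81e-05). PYROXD2, a mitochondrial oxidoreductase, fell by 1.2 (SE 0.2, adjusted p = 0.00043) and CYP2C89, a cytochrome P450, by 1.27 (SE 0.25, adjusted p = 0.0018). CYP2C89 is on the xenobiotic and steroid list, and its groups overlapped. DDIT4, a stress-induced inhibitor of the growth kinase mTORC1, fell by 1.76 (SE 0.44, adjusted p = 0.0122), a call lost without the 1 d array of cow 483. ABCG8, a subunit of the canalicular sterol pump, fell by 1.81 (SE 0.46, adjusted p = 0.0152) with overlapping groups, and its call was lost without either array of cow 477 or the 1 d array of cow 483. CGN1, the serum lectin conglutinin, and CYP2C87, a cytochrome P450, fell by 1.71 and 1.51, also with overlap. CGN1 changed by -2.31 without the 1 d array of cow 483. Both calls were lost without either array of cow 477, the -8 d array of cow 483 or the 1 d array of cow 510.

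Several calls lay elsewhere. CA3, carbonic anhydrase 3, measured 11.22, 11.59, 11.1 and 11.31 at CON 1 d, against 12.35, 12.95, 12.95, 13.01 and 12.93 at CON -8 d (-1.52, SE 0.22, adjusted p = 0.000152 by limma). BTG1, an antiproliferative gene, was at 10.81, 10.77, 10.77 and 10.63 at CON 1 d and 11.74, 11.63, 11.83, 12.18 and 11.75 at CON -8 d (-1.07, SE 0.16, adjusted p = 0.000218). The groups of both genes were far apart, and the -8 d value of cow 445 for CA3 lay nearest to the 1 d arrays. CCND1, the G1 cyclin D1, rose by 1.14 (SE 0.23, adjusted p = 0.00246), 1 of 4 rises among 39 cell cycle genes. That count was 1 without the -8 d array of cow 477 or 483 or the 1 d array of cow 477 or 510, and 2 without the -8 d array of cow 527. The share called in this list was 12.8%, against 8.01% of all genes. CGREF1, a secreted protein with calcium-binding EF hands, measured 6.55, 6.58, 8.08 and 6.25 at CON 1 d and 5.46, 4.42, 4.22, 4.24 and 4.32 at CON -8 d (2.35, SE 0.36, adjusted p = 0.000257). GUSB, the lysosomal beta-glucuronidase, was at 11.1, 11.16, 11.1 and 10.71 at CON 1 d and 10.52, 10.33, 10.34, 10.28 and 10.39 at CON -8 d (0.65, SE 0.09, adjusted p = 6.69e-05). In the lysosome list as a whole 4 of 42 genes rose and 3 fell, 16.7% called against 8.01% of all genes. Its rises were 2 without the 1 d array of cow 483 or 510, and its falls 1 without the -8 d array of cow 477 or the 1 d array of cow 483. Of the 7 clock genes measured 2 fell, PER2, a repressor of the clock, by 0.75 (SE 0.17, adjusted p = 0.00648) and HLF, a clock-driven transcription factor, by 0.6 (SE 0.12, adjusted p = 0.00189). The labels give no hour of biopsy, so time of day and day of sampling cannot be told apart for them.

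Transport and stress lists gave scattered calls. Of all genes 8.01% were called. The share was 21.2% in the solute carriers and 20.0% in the amino acid response. It was 10.5% in the proteasome list, 9.26% in the translation list, 6.67% in the immediate early list and 5.26% in the heat shock list. These last 4 shares lay near that of all genes. Of 33 solute carriers 6 rose and 1 fell, with a median of 0.23. SLC17A9, a vesicular nucleotide transporter, rose by 1.23 (SE 0.26, adjusted p = 0.00327 by limma) and SLC25A33, a mitochondrial pyrimidine carrier, by 0.95 (SE 0.21, adjusted p = 0.00453). Among 54 translation factors and tRNA synthetases 2 rose and 3 fell. Rises were 1 without the -8 d array of cow 477 or 527 or the 1 d array of cow 483 or 510, and 4 without the 1 d array of cow 477. Falls were 1 without the 1 d array of cow 483 and 5 without that of cow 445. EIF4A1, a helicase that unwinds messenger RNA, rose by 0.39 (SE 0.09, adjusted p = 0.00579) and EIF3H, of the initiation complex that joins the small ribosomal subunit, fell by 0.5 (SE 0.1, adjusted p = 0.00299). Of 20 genes of the amino acid response 2 rose and 2 fell, the rises being the transcription factors CEBPB at 0.6 (SE 0.13, adjusted p = 0.00502) and CEBPG at 0.5 (SE 0.11, adjusted p = 0.00619). Both had overlapping groups, and the CEBPB difference within cow 445 was -0.17. There were 6 rises in this list without the -8 d array of cow 445 and 4 without the 1 d array of cow 477. Its falls were 1 without the -8 d array of cow 483 or the 1 d array of cow 477, and 0 without the 1 d array of cow 483. ZFP36, which destabilises cytokine messenger RNA, fell by 0.91 (SE 0.2, adjusted p = 0.00447), 1 of 2 falls with BTG1 among 30 immediate early and feedback genes. TRAP1, a mitochondrial chaperone, rose by 0.6 (SE 0.12, adjusted p = 0.00228), 1 of 2 rises among 38 heat shock genes. The proteasome list had 4 rises among 38 genes, of which 0 to 3 were seen when an array was left out.

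**Figure D4:**
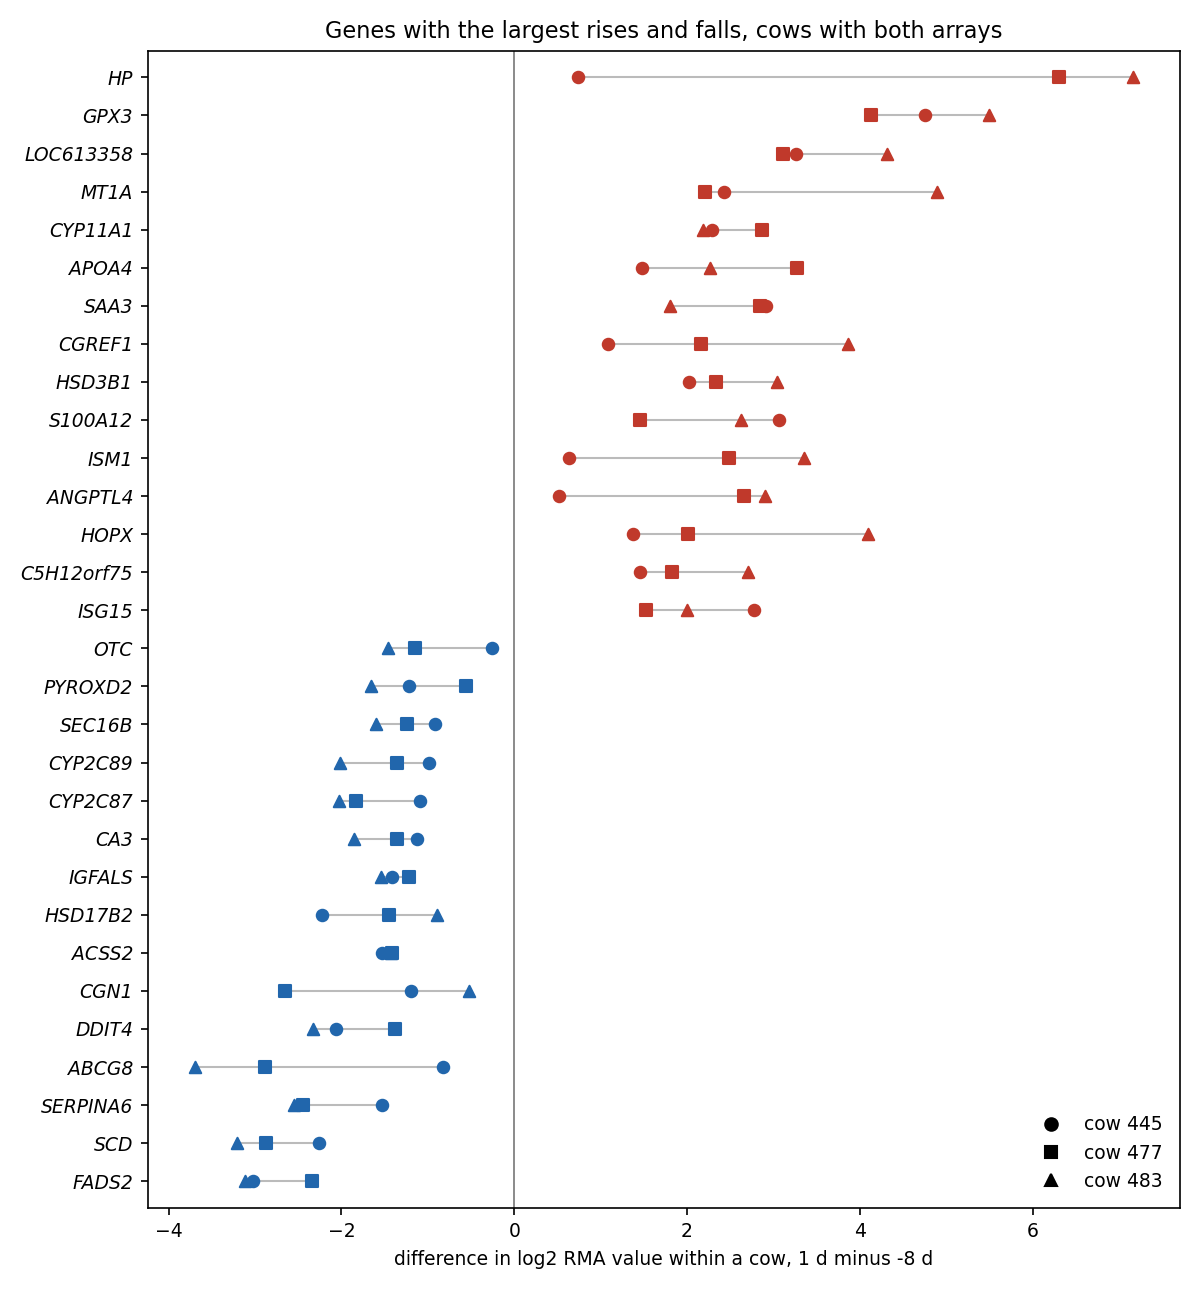
Log2 difference of 1 d minus -8 d within each of the 3 CON cows with both days, for the 15 genes with the largest fitted rises and the 15 with the largest fitted falls among called genes. Cow 445 has the smallest rise in HP, whose -8 d value was already 14.1 in that cow.

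Few markers of other cell types passed the test. Of the 11 Kupffer cell, 18 T and NK cell, 6 B and plasma cell, 8 erythroid and 9 cholangiocyte markers 0 passed the test of limma or of the fit with cow as a fixed block. At an unadjusted p under 0.05 there were 1 higher and 1 lower Kupffer cell marker, 3 lower T and NK cell markers, 1 lower cholangiocyte marker and 0 of the B cell and erythroid markers. The T and NK cell markers had a median of -0.16 and averaged 5.51 to 5.74 at CON 1 d and 5.52 to 5.98 at CON -8 d. Their changes were negative in 15 genes and positive in 3. Stellate cell markers had a median of -0.17, with 1 of 17 called, BGN, the proteoglycan biglycan, which fell by 0.43 (SE 0.1, adjusted p = 0.00638). In this list 14 changes were negative and 3 positive, and the median was -0.34 without both arrays of cow 445. Among 17 endothelial markers 2 rose and 1 fell, EMCN, the sialomucin endomucin, at -0.78 (SE 0.16, adjusted p = 0.00322). The endothelial rises were 0 without the 1 d array of cow 477. They were 1 without any other 1 d array or the -8 d array of cow 483, 527 or 528. The list means of stellate and endothelial markers overlapped between the days.

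The CON cows also had 6 arrays at 9 d, whose levels are given with no test. HP averaged 10.63 ± 2.64 at -8 d, 14.87 ± 0.02 at 1 d and 12.18 ± 1.82 at 9 d (SD, n = 5, 4 and 6, as for the genes that follow). GPX3 averaged 4.5 ± 0.28 at -8 d, 8.79 ± 0.99 at 1 d and 5.59 ± 0.86 at 9 d, and ITIH4 12.54 ± 0.32, 13.93 ± 0.13 and 12.5 ± 0.33 on the same days in that order. These plasma proteins lay lower at 9 d than at 1 d. FADS2 averaged 12.75 ± 0.5 at -8 d, 9.88 ± 0.7 at 1 d and 11.97 ± 0.79 at 9 d. SCD was at 10.84 ± 0.62, 8.36 ± 0.91 and 9.96 ± 0.52, and OTC at 10.14 ± 0.29, 9.01 ± 0.32 and 9.85 ± 0.15, on the same days in that order. ARG1 averaged 12.9 ± 0.26 at -8 d, 13.63 ± 0.23 at 1 d and 13.67 ± 0.12 at 9 d, and APOA4 10.2 ± 0.83, 12.7 ± 0.42 and 11.98 ± 0.57. PC was at 10.3 ± 0.56, 11.81 ± 0.11 and 11.15 ± 0.1.

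The HIGH cows gave a reading of the same days in other animals, with 6 arrays at 1 d and 5 at -8 d. In them 2090 probe sets rose and 1892 fell, 16.6% of those tested, whereas CON cows gave 6.32% with fewer arrays. Of the cows, 3 CON and 5 HIGH cows had both days. Of the 1519 probe sets called in CON cows, 1485 had the same sign in HIGH cows and 1028 passed the test there, and 0 passed with the opposite sign. Those 1028 were 67.7% of the CON calls and 25.8% of the HIGH calls. Over all probe sets 69.5% had the same sign on both diets, and the changes correlated at r = 0.733 across probe sets, which are not independent and were normalised together.

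The difference of the responses, CON minus HIGH, was past the threshold for 0 probe sets (0.0%) by limma, with a lowest adjusted p of 0.353. At an unadjusted p under 0.05 there were 1723 probe sets, 7.17% of those tested. The count was also 0 in the other fits, except for 1 probe set without a gene symbol when the 1 d array of cow 445 was left out. A gene called on 1 diet and not on the other is therefore not shown to differ between them. APOA4 changed by 2.45 in CON cows and 0.98 (adjusted p = 0.0745) in HIGH cows, a difference of 1.47 (SE 0.57, adjusted p = 0.617). For CPT1B the changes were 1.65 in CON cows and 0.17 in HIGH cows, a difference of 1.48 (SE 0.42, adjusted p = 0.568), and for G0S2 they were 1.77 in CON cows and 0.54 in HIGH cows, a difference of 1.24 (SE 0.57, adjusted p = 0.688). None of these differences passed the test. The same held for PDIA3, a disulfide isomerase of glycoprotein folding, at 0.35 in CON cows and 1.0 in HIGH cows (-0.65, SE 0.14, adjusted p = 0.353), PRDX4 at 0.93 in CON cows and 1.59 in HIGH cows (-0.65, SE 0.16, adjusted p = 0.478) and NUCB2 at 1.03 in CON cows and 2.2 in HIGH cows (-1.16, SE 0.31, adjusted p = 0.561). PDIA3 was 1 of the 5 genes with the smallest p of the difference. The others were APON, an apolipoprotein, at 0.37 in CON cows and -0.59 in HIGH cows (0.97, SE 0.22), ATOH1, a transcription factor at dim levels, at 0.16 in CON cows and -0.22 in HIGH cows (0.38, SE 0.09), SLC18A2, a vesicular monoamine transporter, at -0.11 in CON cows and 0.49 in HIGH cows (-0.6, SE 0.14), and FKBP2, a prolyl isomerase of the endoplasmic reticulum, at 0.32 in CON cows and 0.9 in HIGH cows (-0.58, SE 0.13), each with an adjusted p of 0.353. The call of PDIA3 in CON cows was lost in 6 of the 9 fits that left out an array. Of the 34 endoplasmic reticulum genes 7 rose in CON cows and 29 in HIGH cows, and of the 58 secretory pathway genes 9 rose in CON cows and 43 in HIGH cows. Over all probe sets, too, fewer were called in CON cows, 6.32% against 16.6% in HIGH cows. With cow as a fixed block 15 genes of each list rose in CON cows. Whether these counts differ between the diets was not tested. For HP the changes were 4.42 in CON cows and 5.25 in HIGH cows, a difference of -0.84 (SE 1.34), for GPX3 4.41 in CON cows and 4.87 in HIGH cows, a difference of -0.46 (SE 0.5), and for FADS2 -2.86 in CON cows and -3.0 in HIGH cows, a difference of 0.14 (SE 0.55). These intervals still allow differences of some size.

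**Figure D5:**
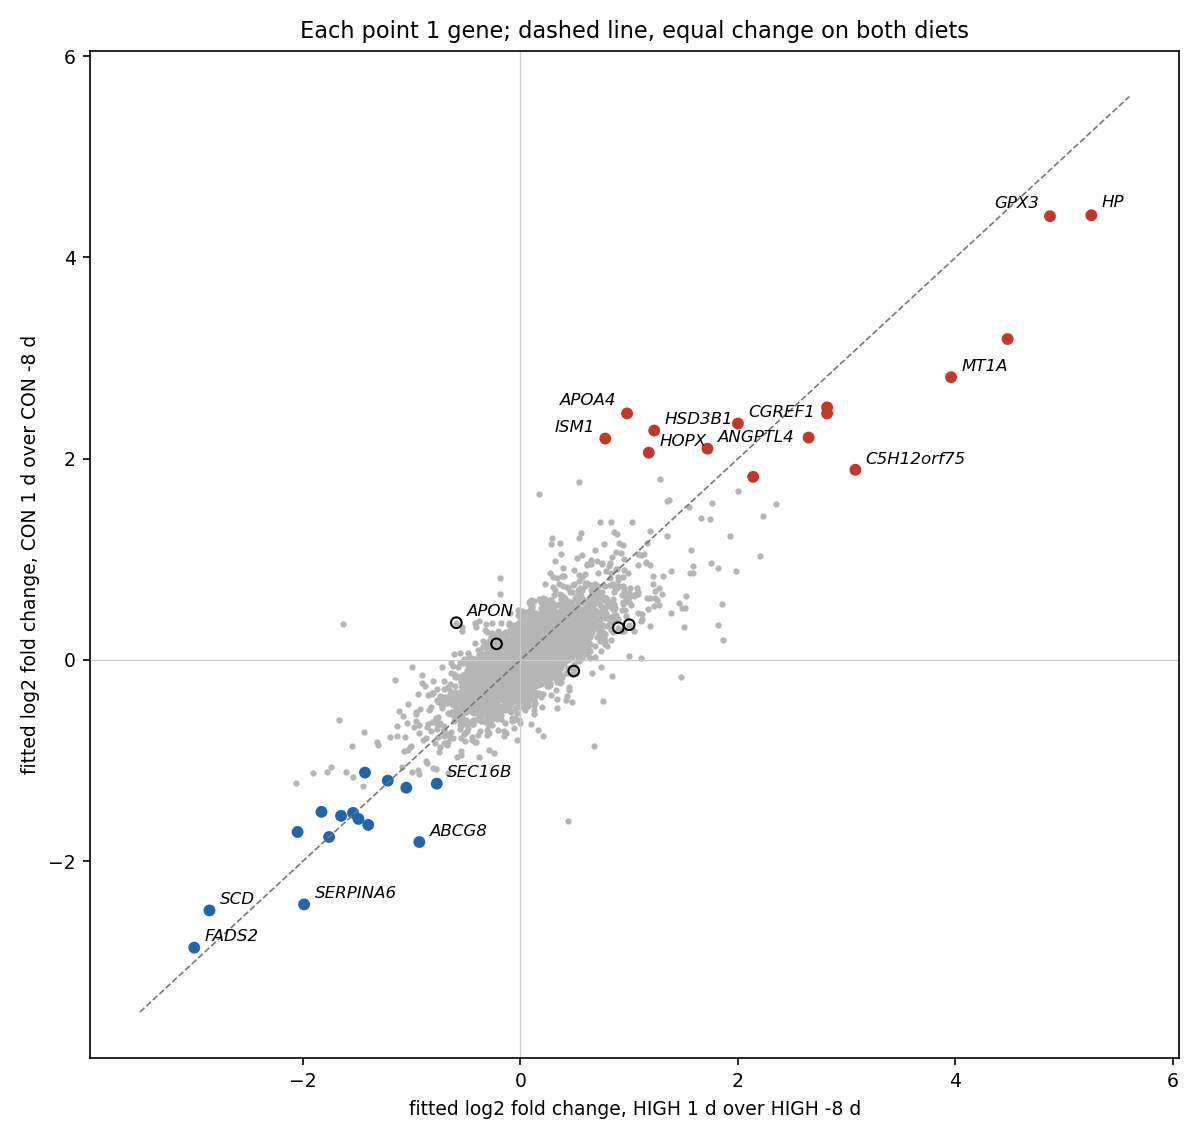
Fitted log2 change between the 2 days for each gene, CON cows on the vertical axis and HIGH cows on the horizontal axis, with a dashed line of equal change, filled points for the 30 genes with the largest rises (red) and falls (blue) in CON cows and open circles for the 5 genes with the smallest p of the difference. The changes correlate at r = 0.733 over probe sets, and APOA4 lies above the line with 2.45 in CON cows and 0.98 in HIGH cows.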

How the data were processed

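The labels describe RNA from liver biopsies, extracted with silica columns and labelled with biotin for Affymetrix arrays. The authors deposited log2 values made with RMA in Affymetrix Expression Console 1.1, per the submitters' processing notes, with settings that are not given in the sources used here. Because RMA equalises the distributions of the arrays, a change is relative to most other probe sets. The table held 24128 probe sets, and 112 array controls were removed with no filter on level. Array annotation gave 1 symbol to 13292 probe sets (9155 genes), several to 86 and none to 10638. No genome positions were used.

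limma 3.58.1 in R 4.3.3 (statmod 1.5.0) fitted the means of the 6 groups of 32 arrays, took cow as a random block (estimated correlation 0.138, 26 residual degrees of freedom) and used a trended prior, and the fit was tested on simulated data. Cow numbers come from the labels. Deviations from group means correlated at 0.229 to 0.304 within a cow and at -0.273 to 0.115 between cows. The number of arrays limits the precision. Genes named are the 15 largest rises and 15 largest falls among called genes that moved the same way in each cow with both days, up to 6 members with the smallest p in each of 37 gene and 9 marker lists, 16 fixed genes, and the 5 smallest p of CON minus HIGH. The text uses part of these. Members and lists were chosen with earlier results of these data known. List members without a probe set here are not counted. Alternatives covered the cow term, the arrays, the prior, array weights, a level filter and the normalization. Leaving out both arrays of cow 445, and refitting CON minus HIGH and HIGH alone under each alternative, were chosen after seeing the data.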

Additional observations from a re-analysis of the deposited data

Results flagged for a closer look

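In 19 of 228 gene and day groups 1 array lay far from the others of its group, past Dixon's 95% critical value for the gap over the range, and chance gives such a gap in about 1 in 20 groups. The -8 d array of cow 445 accounted for 7 of these. It was highest before calving for CGREF1 at 5.46, ANGPTL4 at 8.01, SSR3 at 11.13 and SLC25A33 at 9.5, and lowest for CA3 at 12.35, OTC at 9.64 and APOM at 9.35. For the first 6 of these 7 genes its value lay on the side of the 1 d arrays. APOM, which was higher at 1 d, lay on the other side. The 1 d array of cow 445 was highest for S100A8 at 9.55 and ERO1A at 7.14 and lowest for ACADVL at 11.44.

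Other arrays apart were the -8 d array of cow 483, highest for HSD3B1 at 5.5 and CYP2C87 at 10.2, and that of cow 477, lowest for ERO1A at 5.46 and RPN2 at 10.74. The -8 d array of cow 527 was lowest for UQCR11 at 11.82 and highest for HLF at 10.87. After calving, cow 477 was highest for PC at 11.98, and cow 510 was highest for TRAP1 at 8.23 and lowest for GUSB at 10.71.

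APON moved in opposite directions on the diets, upward in each of the 3 CON cows with both days and downward in each of the 5 HIGH cows with both days. The difference of the responses was 0.97 (SE 0.22), with an adjusted p of 0.353 by limma.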

How the results depend on the processing

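Each of the 1519 calls kept its sign in every alternative that tested it, and the number of calls depended on the arrays and on how cow entered the fit. With no replicate block 598 probe sets rose and 520 fell, and with cow as a fixed replicate block over 32 arrays 765 rose and 651 fell. With the paired fit of the 3 cows alone 52 probe sets rose and 32 fell (32 and 17 genes), and with only the 9 CON arrays 222 rose and 204 fell (128 and 83 genes). These 2 fits hold fewer samples. A mean level of at least 6 gave 445 falling genes. Leaving out 1 array gave 420 to 942 rising and 359 to 875 falling probe sets, and 235 to 532 rising and 161 to 389 falling genes. The lowest counts came without the 1 d array of cow 483, and the highest without an array of cow 445, that of -8 d for rising genes and that of 1 d for the other counts. The difference of CON minus HIGH had 0 to 1 probe sets past the threshold over these fits. Of the 107 called genes in the text, 96 to 106 passed with 1 array left out. In an exact permutation test of the 9 CON arrays 106 passed (smallest p possible 0.0079, unadjusted, with the 3 cows that have both days treated as unpaired). These genes were picked for their calls on the same arrays, so passing this test is no separate support for them. With the probe set of largest SD, APOM and GLUD1 did not pass and BHMT gave -0.08. The cause of these differences was not tested. Changes of the dimmest and brightest probe sets may be compressed.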
